A study of Mus musculus with 16 samples.

Results

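The data describe the 6 conventional actin genes of the mouse, *Actb*, *Actg1*, *Acta2*, *Actg2*, *Acta1* and *Actc1*, in the somatodendritic and axonal compartments of cultured motoneurons with and without hnRNP R. The genes were taken by symbol from a table of 46320 genes, and all 6 were among the 19964 genes with enough reads to be tested. RNA was sequenced from 16 libraries, 4 in each of 4 groups: *Hnrnpr* +/+ and *Hnrnpr* -/- motoneurons, each split into a somatodendritic and an axonal compartment by a microfluidic chamber designed to separate axons from cell bodies. Values given for axons are those of the axonal compartment, whose freedom from other cells was not tested here. Both genotypes were on a C57Bl/6 background, and the -/- line carried a CRISPR/Cas9 deletion of the first exons of *Hnrnpr* in all cells of the animal. The cells came from lumbar spinal cords at embryonic day 13 and were enriched by panning with an antibody against p75NTR, a surface receptor that other cells can also carry. Every culture received ciliary neurotrophic factor (CNTF) at 5 ng/ml on both sides, and the axonal side alone received brain-derived neurotrophic factor (BDNF) at 20 ng/ml, so that compartment and BDNF cannot be told apart. Axonal cDNA was amplified with more PCR cycles than somatodendritic cDNA, so that compartment and amplification cannot be told apart either. The study describes the replicates as biological ones, while no source used here says whether libraries of the same number came from the same culture.

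Actins are the building blocks of actin filaments, which drive the growth cone at the tip of an axon and line the axon beneath its membrane. β-Actin and γ-actin, from *Actb* and *Actg1*, are the cytoplasmic isoforms found in nearly all cells, whereas *Acta2* and *Actg2* encode the smooth muscle actins and *Acta1* and *Actc1* the sarcomeric actins of skeletal and cardiac muscle. *Actb* mRNA is a well-known cargo of axonal transport, recognised through a zipcode in its 3′ untranslated region by the binding protein encoded by *Igf2bp1*, and hnRNP R was among the proteins found to bind it in motoneurons. The comparisons between compartments ask which actin transcripts are relatively abundant in axons, and the comparisons between genotypes ask whether their levels depend on hnRNP R.

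The proteins differ most at their amino terminus, and the first 30 coding bases are shown for that reason, 5′ to 3′ on the coding strand, with capitals marking bases that differ from *Actb* at the same position. All were read from the GRCm39 genome.
Actb, chr5:142891412-142891441, minus strand: atggatgacgatatcgctgcgctggtcgtc
Actg1, chr11:120238888-120238917, minus strand: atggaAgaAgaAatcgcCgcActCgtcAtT
Acta2, chr19:34229924-34229953, minus strand: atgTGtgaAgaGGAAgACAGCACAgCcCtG
Actg2, chr6:83504394-83504423, minus strand: atgTGtgaAgaAGAGAcCAcCGCCCtTgtG
Acta1, chr8:124620407-124620436, minus strand: atgTGCgacgaAGAcgAGAcCACCgCTCtT
Actc1, chr2:113882483-113882512, minus strand: atgTGtgacgaCGAGgAGAcCACCgCTTtG

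*Actg1* differed from *Actb* at 8 of these bases, and the muscle actins at 17 or 18. Over the whole coding sequence, *Actb* and *Actg1* were identical at 88.6% of aligned positions, the highest value among the 15 pairs, and *Actg1* and *Acta2* at 81.5%, the lowest. No stretch of 100 bases, the length of a read, occurred in the mRNA of more than 1 of the 6 genes, so a full-length read with no mismatch can be assigned to its isoform. The picture was different for copies elsewhere in the genome. Of the 100-base windows of *Actg1* mRNA, 81.9% occurred at least once more in the genome, against 1.1% for *Actb* and 0% for each of the muscle actins.

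Among the mRNAs of the 6 genes, the bipartite core of the zipcode, searched on the mRNA strand as CGGAC and ACACC separated by 5 to 20 bases, occurred only in *Actb*, starting 2 bases into the 3′ untranslated region. It is printed with both parts in capitals.
Actb, chr5:142889523-142889551, minus strand: CGGACtgttactgagctgcgttttACACC

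The same letters occurred in 3425 of 180384 coding transcripts of the annotation, or 1.9%. Promoter sequences from RefSeq, covering 250 bases before to 50 after the start site on the GRCm38.p6 build, were at hand for 4 of the 6 genes. The CArG box, the site of serum response factor (SRF), was searched on both strands by its consensus and found in 3 of them, against 1.63% of 32851 promoters. The boxes are in capitals.
Actc1, chr2:114052903-114052932, minus strand: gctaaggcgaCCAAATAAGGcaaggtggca
Acta1, chr8:123894829-123894858, minus strand: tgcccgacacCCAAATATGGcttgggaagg
Actg1, chr11:120348566-120348595, minus strand: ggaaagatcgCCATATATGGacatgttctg

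The promoter of *Acta2* held no such letters in this window, and *Actb* and *Actg2* were not searched.

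The genotype labels were checked first. *Hnrnpr* had 204 ± 27.1 CPM (counts scaled to a common library size with TMM factors, mean ± SD, n = 4) on the +/+ somatodendritic side and 212 ± 141 CPM in +/+ axons, and 0.861 ± 0.305 and 0.876 ± 0.222 CPM in the corresponding -/- libraries. The libraries held 22024923 to 34864151 counts, and the spread between replicates was wider in axons, the common dispersion being 0.275 among axonal and 0.0499 among somatodendritic libraries. Apart from *Ret*, motoneuron markers were scarce even on the somatodendritic side, with means of at most 8.05 CPM in +/+ cultures. *Chat*, which encodes the enzyme of acetylcholine synthesis, had 0.899 ± 0.291 CPM there in +/+ cultures, and *Mnx1*, a motoneuron transcription factor, had no read in 3 of the 4 groups. Summed over 10 motoneuron markers, levels were 99.9 to 167 CPM in the somatodendritic libraries and 4.98 to 78.7 CPM in the axonal libraries. *Ret*, named after its value was seen, made up most of the +/+ somatodendritic sum, with 92.5 ± 9.68 of 124 ± 14.1 CPM. It reached 66.5 CPM in -/- axons. Libraries with the replicate number 3 stood apart in *Acta2* and, in axons, in *Actb*, and the -/- libraries with the number 4 stood apart in *Acta1* and *Actc1*. Alternatives without these libraries were chosen after seeing the data.

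By the deposited counts, *Actb* was the most abundant actin transcript in all 16 libraries, although *Actg1* exceeded it in 3 of the 8 somatodendritic libraries once counts of near-identical pseudogenes were added to *Actg1*. *Actb* was 2.45-fold higher in axons than in the somatodendritic compartment of +/+ motoneurons. *Actb* lies on chromosome 5 from 142888870 to 142892509 (minus strand, GRCm39, gene ID 11461). In +/+ motoneurons it had 3965, 3490, 4044 and 4023 CPM in somatodendritic libraries 1 to 4 and 7060, 5093, 17668 and 8204 CPM in axonal libraries 1 to 4. Every axonal library lay above every somatodendritic one, and axonal library 3 was far above the other axonal libraries. On the log2 scale the axonal level was higher by 1.29 with an SE of 0.33 (adjusted p = 0.00425, edgeR's quasi-likelihood test, Benjamini-Hochberg over all genes). Such a lack of overlap, with all axonal libraries above all somatodendritic ones, was met in 24.8% of all tested genes in +/+ and 24.1% in -/- motoneurons. Without +/+ axonal replicate 3 it was 0.85, and without all libraries of number 3 it was 0.80 (adjusted p = 0.0106, edgeR). The -/- cultures had 3124, 4055, 3619 and 3665 CPM of *Actb* on the somatodendritic side and 5946, 7517, 14897 and 9121 CPM in axons, again with no overlap. Here the log2 difference was 1.37 with an SE of 0.33 (edgeR adjusted p = 0.00328), or 1.06 without number 3. *Actb* overlaps *Gm38733* on the opposite strand, and since the library kit does not mark strand, reads from shared exons cannot be told apart.

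*Actg1*, on chromosome 11 from 120236513 to 120239321 (minus strand, gene ID 11465), did not pass the test in either genotype. Its +/+ somatodendritic libraries had 2274, 2130, 2236 and 2563 CPM and its axonal libraries 2296, 1803, 3128 and 3005 CPM, which overlap. The log2 fold change was 0.15 (95% confidence interval -0.22 to 0.53, adjusted p = 0.476 from edgeR), so a rise of the size seen for *Actb* lies outside the interval. The -/- values were 2243, 2224, 1937 and 2108 CPM on the somatodendritic side and 2613, 2231, 3438 and 2741 CPM in axons. The axonal library was the higher one at all 4 replicate numbers, although the ranges of the groups overlapped narrowly. The log2 fold change was 0.37 (-0.00 to 0.75, adjusted p = 0.0861 from edgeR), and it passed the threshold with library totals in place of TMM factors (0.49, adjusted p = 0.0214) and without +/+ axonal replicate 2 (0.37, adjusted p = 0.0451) or replicate 3 (0.41, adjusted p = 0.0499). It was smaller without number 3, at 0.20 (edgeR adjusted p = 0.408), and 0.37 without -/- number 4 (edgeR adjusted p = 0.190), and the +/+ value was 0.00518 without number 3. *Mir6935* lies within *Actg1* on the same strand.

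**Figure D1:**
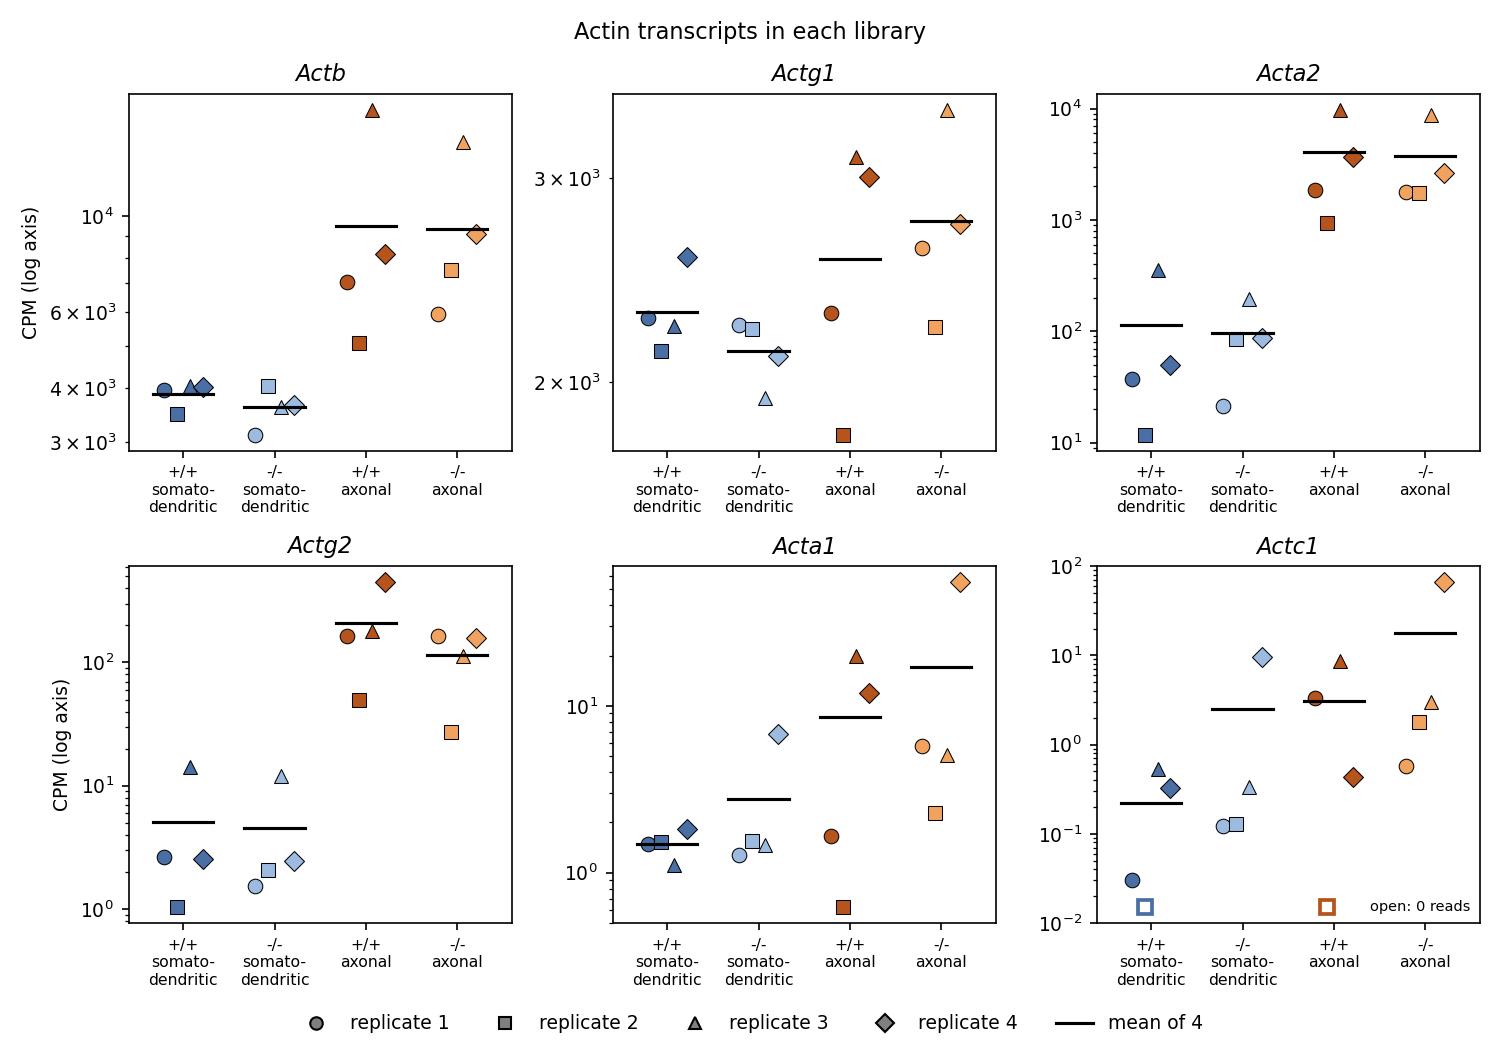
CPM of each actin transcript (log axis) in the 4 libraries of each group. Symbols give the replicate number, horizontal lines the mean of 4, and open symbols at the foot of the *Actc1* panel libraries with 0 reads. Axonal libraries lay above somatodendritic ones without overlap for *Actb*, *Acta2* and *Actg2*, replicate 3 was highest for *Acta2* in each group, and -/- replicate 4 was highest for *Acta1* and *Actc1* in both compartments.

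The level of *Actg1* itself was uncertain, because the authors' counting divided each read with several alignments among them. A search of the genome found 7 pseudogene rows of the table that aligned to *Actg1* mRNA over at least 300 bases with at least 95% identity. The largest, *Gm12715* on chromosome 4 from 103420522 to 103422426, was 99.7% identical over 1905 bases and had 1096, 1011, 1227 and 1305 CPM on average in +/+ somatodendritic, -/- somatodendritic, +/+ axonal and -/- axonal libraries. *Actg-ps1*, the pseudogene named after *Actg1*, had group means of 70.6 to 93.1 CPM, and *Actr3-ps*, named after the actin-related protein 3 gene, 31.0 to 48.8 CPM. Together the 7 rows held 41.5% to 43.8% of the counts shared between them and *Actg1*, a share that was nearly the same in every library. Adding them to *Actg1* therefore raised its level in all groups and left 3 of the 6 actins past the threshold in each genotype.

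The ratio of *Actg1* to *Actb* within a library, in counts per kilobase of exon, was lower in axons at every replicate number in both genotypes. In +/+ motoneurons it was 0.564, 0.600, 0.544 and 0.626 on the somatodendritic side and 0.320, 0.348, 0.174 and 0.360 in axons, without overlap. The log2 difference was -1.01 (p = 0.0286, two-sided exact permutation test, n = 4 against 4, adjusted p = 0.0571 over 4 comparisons), and p = 0.0286 is the smallest value the design allows. For -/- motoneurons the ratio was 0.706, 0.539, 0.526 and 0.566 in the somatodendritic and 0.432, 0.292, 0.227 and 0.295 in the axonal libraries. The log2 difference was -0.94 with the same exact p = 0.0286 (adjusted 0.0571), and p = 0.125 when signs were flipped within pairs of the same number, the smallest value that 4 pairs allow. The genotypes did not differ detectably in this ratio, with a log2 difference of -0.01 on the somatodendritic side (exact permutation p = 0.943) and 0.07 in axons (exact permutation p = 0.8).

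With the 7 near-identical pseudogene rows added to *Actg1*, the ratio in +/+ motoneurons was 0.942 to 1.10 in somatodendritic and 0.303 to 0.624 in axonal libraries. Whether γ-actin or β-actin transcripts were the more abundant on the somatodendritic side thus depended on where the divided reads belonged. The log2 difference between the compartments hardly moved, at -1.001 in +/+ and -0.94 in -/- motoneurons, each with the exact permutation p = 0.0286 for n = 4 against 4.

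**Figure D2:**
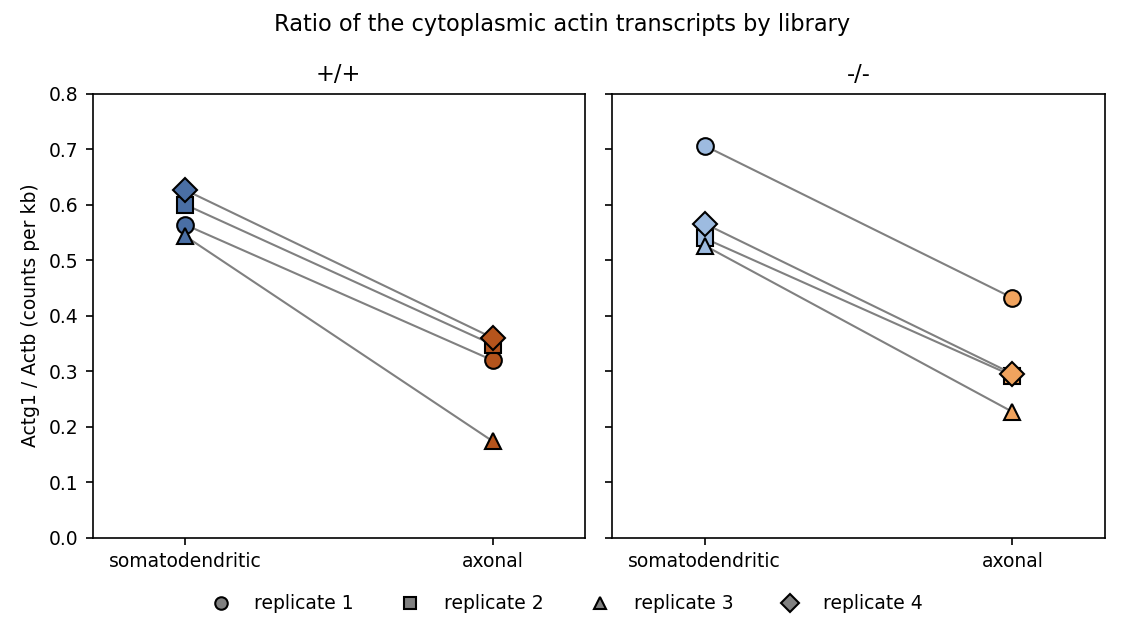
Ratio of *Actg1* to *Actb*, in counts per kilobase of exon, for each library, with a line joining the compartments of the same replicate number. All 8 lines fall, from 0.526 to 0.706 on the somatodendritic side to 0.174 to 0.432 in axons.

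*Acta2*, which encodes the smooth muscle α-actin of vessel walls, showed a far larger difference between the compartments. It lies on chromosome 19 from 34217736 to 34232985 (minus strand, gene ID 11475). In +/+ motoneurons it had 37.1, 11.8, 353 and 49.9 CPM in somatodendritic and 1848, 936, 9784 and 3664 CPM in axonal libraries. The groups did not overlap, and library 3 was the highest on both sides. The log2 difference of 5.17 with an SE of 1.14 (edgeR adjusted p = 0.0016) corresponded to a 35.9-fold difference, with a 95% confidence interval of 2.74 to 7.59 on the log2 scale. Leaving out 1 library moved it between 4.30, without +/+ axonal replicate 3, and 6.99, without +/+ somatodendritic replicate 3, and it was 5.996 without number 3. For -/- motoneurons the values were 21.4, 84.6, 197 and 86.8 CPM and then 1792, 1765, 8734 and 2655 CPM, also without overlap. The log2 difference was 5.26 with an SE of 1.14 (edgeR adjusted p = 0.00164) and 5.03 without number 3. It ranged from 4.46 without -/- axonal replicate 3 to 5.85 without -/- somatodendritic replicate 3.

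*Actg2*, the actin of intestinal smooth muscle, followed the same order at lower levels. It lies on chromosome 6 from 83489891 to 83513233 (minus strand, gene ID 11468). The +/+ somatodendritic libraries had 2.63, 1.04, 14.2 and 2.53 CPM, and the axonal libraries 163, 49.5, 181 and 447 CPM. No values overlapped, and here the highest axonal library was number 4. The log2 difference was 5.36 with an SE of 1.01 (edgeR adjusted p = 0.000558) and 6.68 without number 3. The -/- libraries had 1.52, 2.08, 12.02 and 2.45 CPM on the somatodendritic side and 164, 27.1, 112 and 157 CPM in axons. The groups were again apart, and the log2 difference was 4.67 with an SE of 0.98 (edgeR adjusted p = 0.00131) and 5.86 without number 3. Most of this shift came with the somatodendritic libraries of number 3, without which the values were 6.70 in +/+ and 5.82 in -/- motoneurons. Thus 3 of the 6 actins were higher in axons in +/+ motoneurons, where 30.1% of all tested genes were higher and 57.5% differed in either direction. Among -/- libraries it was also *Actb*, *Acta2* and *Actg2*, against 27.5% and 54.2% of all genes. The comparisons of the genotypes use separate libraries but share the estimate of the spread.

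*Acta1* and *Actc1*, the actins of skeletal and cardiac muscle, were the least abundant. *Acta1* (chromosome 8 from 124618497 to 124621514, minus strand, gene ID 11459) had 1.48, 1.53, 1.12 and 1.83 CPM in +/+ somatodendritic and 1.67, 0.622, 19.8 and 12.02 CPM in +/+ axonal libraries. The -/- libraries had 1.28, 1.56, 1.47 and 6.78 CPM on the somatodendritic side and 5.75, 2.27, 5.04 and 55.1 CPM in axons. The groups overlapped in both genotypes. The log2 fold changes between compartments were 2.52 (SE 1.08, adjusted p = 0.0588) and 2.62 (SE 1.08, adjusted p = 0.0511 from edgeR), just short of the threshold, and DESeq2 with default settings placed *Acta1* past it in both genotypes (adjusted p = 0.0167 and 0.0112). The edgeR call for *Acta1* also turned without any 1 of +/+ axonal replicates 1 and 2 and -/- axonal replicates 2 and 4 in +/+ motoneurons (adjusted p = 0.0241 to 0.0494). For -/- motoneurons it turned without any 1 of -/- somatodendritic replicate 4, +/+ axonal replicates 1 to 3 and -/- axonal replicates 1 to 3 (edgeR adjusted p = 0.0265 to 0.0480), and the log2 difference was 0.65 without -/- axonal replicate 4 and 1.59 without -/- number 4 in both compartments (edgeR adjusted p = 0.165). In +/+ motoneurons it was 1.72 without axonal replicate 3 (edgeR adjusted p = 0.197) and 1.51 without number 3 (edgeR adjusted p = 0.336).

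*Actc1* (chromosome 2 from 113877763 to 113883356, minus strand, gene ID 11464) rested on few reads. Its counts were 1, 0, 13 and 7 in +/+ somatodendritic, 97, 0, 267 and 14 in +/+ axonal, 3, 3, 8 and 223 in -/- somatodendritic and 20, 58, 100 and 1993 in -/- axonal libraries. Where no read was seen, up to 3 counts could have been missed by counting error alone, PCR duplicates not being marked by molecular identifiers. The log2 fold changes of 3.80 in +/+ (SE 1.96, adjusted p = 0.109) and 2.81 in -/- motoneurons (SE 1.73, adjusted p = 0.181 from edgeR) did not pass the test, and DESeq2 gave no p-value for this gene. The +/+ value was 2.53 without axonal replicate 3 and 3.43 without number 3. As -/- libraries of the same number deviated together, a fit with the culture as a block was also made and gave *Actc1* a log2 fold change of 2.97 (adjusted p = 0.00734 from edgeR). The same fit gave 3.49 for *Actc1* in +/+ motoneurons (edgeR adjusted p = 0.00994), where the libraries did not meet the rule for pairs. Without -/- axonal replicate 4 the value was -0.50, without -/- somatodendritic replicate 4 it was 6.46 (edgeR adjusted p = 0.0217), and without both it was 3.16 (edgeR adjusted p = 0.124). Leaving both out also placed *Acta1* and *Actc1* of the +/+ motoneurons past the threshold (log2 fold changes of 2.51 and 3.78, edgeR adjusted p = 0.0172 and 0.0343), since they share the estimate of the spread.

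**Figure D3:**
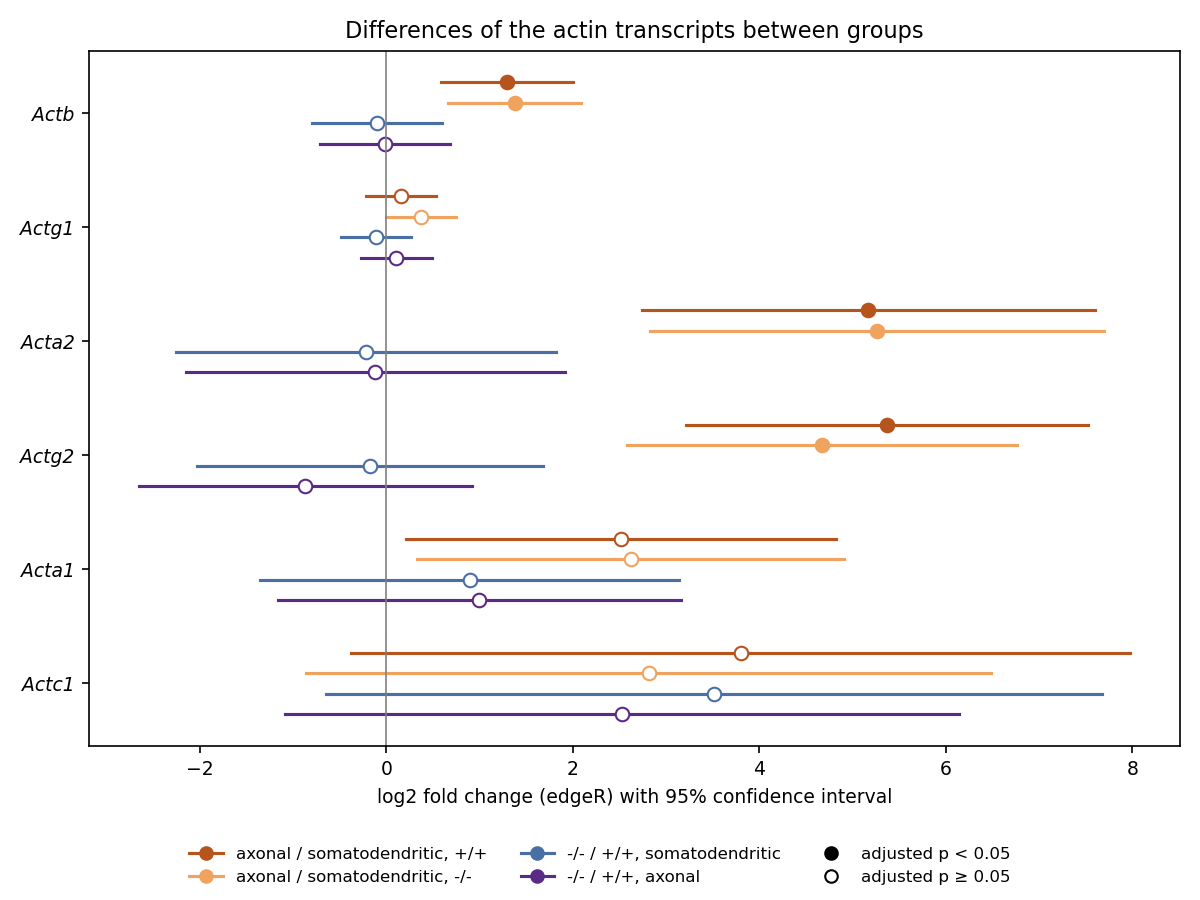
Log2 fold changes of the 6 actin transcripts from edgeR with 95% confidence intervals, for axonal against somatodendritic libraries in each genotype and for -/- against +/+ in each compartment, 4 libraries per group. Filled points passed an adjusted p of 0.05. Only the compartment differences of *Actb*, *Acta2* and *Actg2* are filled, and every genotype interval crosses 0.

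The difference in composition was seen on the scale of CPM per kilobase of exon, on which genes can be compared. *Actb* made up 62.3% ± 1.03 of the summed actin level in +/+ somatodendritic libraries (SD, n = 4), against 63.4% ± 4.30 in +/+ axonal libraries. The share of *Actg1* was 36.3% ± 1.97 and 19.01% ± 5.41, and that of *Acta2* 1.18% ± 1.67 and 15.3% ± 6.85, so that the share was lower for *Actg1* and higher for *Acta2* in axons. *Actg2* held 0.116% ± 0.136 and 2.17% ± 1.70, while the share of *Actb* differed by less than the spread between axonal libraries. With the 7 near-identical pseudogene rows added to *Actg1*, an alternative chosen after seeing the data, the +/+ shares of *Actg1* were 49.7% ± 2.22 and 28.8% ± 7.56 and those of *Actb* 49.3% ± 1.34 and 55.6% ± 4.01 on the somatodendritic and axonal side, and *Acta2* held 13.6% ± 6.58 in axons. The -/- shares of *Actb*, *Actg1* and *Acta2* were 62.4% ± 2.69, 36.3% ± 3.42 and 1.13% ± 0.872 on the somatodendritic side and 63.6% ± 4.08, 19.7% ± 4.86 and 15.1% ± 6.20 in axons. Together the 4 muscle actins held 0.203% to 4.03% of the actin level in the 8 somatodendritic and 9.34% to 25.0% in the 8 axonal libraries, which did not overlap. The 6 actins together took 0.484% to 0.642% of all counts in somatodendritic and 0.836% to 3.14% in axonal libraries.

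On the same scale, the order of the mean levels in +/+ somatodendritic libraries was *Actb* (2021 CPM per kilobase), *Actg1* (1178), *Acta2* (39.9), *Actg2* (3.88), *Acta1* (0.948) and *Actc1* (0.154). The ranges of *Acta2* and *Actg2* and those of *Actg2* and *Acta1* overlapped, whereas the other neighbours were apart. Among -/- somatodendritic libraries, those of *Acta1* and *Actc1* overlapped as well. In +/+ axons the order was *Actb* (4951), *Acta2* (1432), *Actg1* (1310), *Actg2* (160), *Acta1* (5.43) and *Actc1* (2.12). There, neither *Actb* and *Acta2*, nor *Acta2* and *Actg1*, nor *Acta1* and *Actc1* were apart in their ranges. *Acta2* exceeded *Actg1* in 2 of the 8 axonal libraries, those with the number 3, and *Actg1* was second in the other 6. With the pseudogene rows added, *Actg1* had 2280 CPM per kilobase in +/+ and 2439 in -/- axons, above the mean of *Acta2* in both, and *Acta2* still exceeded it in the 2 libraries of number 3. In -/- axons the means were 4880 for *Actb*, 1411 for *Actg1*, 1318 for *Acta2*, 87.6 for *Actg2*, 12.2 for *Actc1* and 10.8 for *Acta1*. *Actb* was apart from *Actg1* and *Acta2* from *Actg2*, while the remaining neighbours overlapped.

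**Figure D4:**
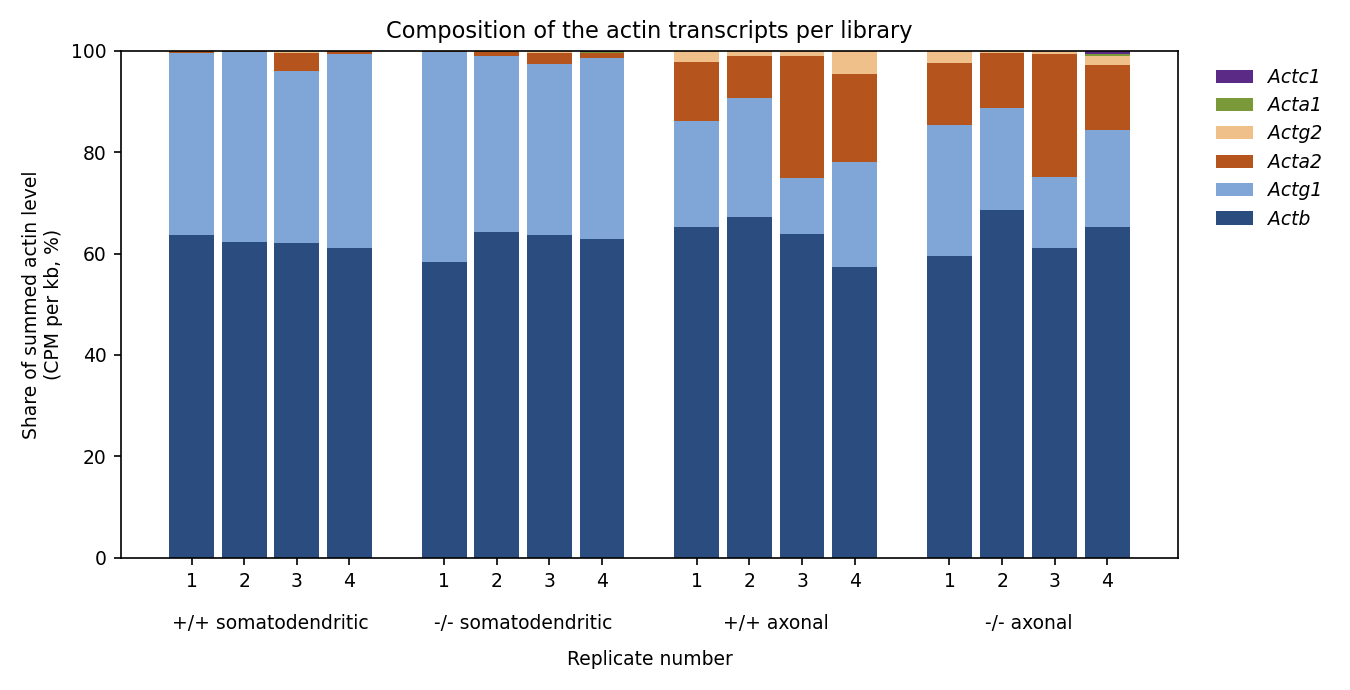
Share of each actin gene in the summed actin level (CPM per kilobase, percent) in each of the 16 libraries. *Actb* holds 57.3% to 68.6% of each bar by the deposited counts, without pseudogene rows, *Actg1* 33.5% to 41.2% in somatodendritic and 11.1% to 25.8% in axonal libraries, and the muscle actins up to 25.0% in axons.

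Loss of hnRNP R was not accompanied by a detectable difference in any actin transcript. In edgeR, 0 of the 6 passed the adjusted threshold on the somatodendritic side and 0 in axons, where 0.00501% and 0.01% of all tested genes did. At an unadjusted p under 0.05 it was also 0 of 6 in each compartment, against 0.601% and 3.88% of all genes, and DESeq2 called none of the 5 actins for which it gave a p-value. For *Actb*, the somatodendritic means were 3880 ± 263 CPM in +/+ and 3616 ± 382 CPM in -/- libraries, and the axonal means 9506 ± 5591 and 9370 ± 3906 CPM (SD, n = 4). The log2 fold changes of -/- against +/+ were -0.10 (95% confidence interval -0.80 to 0.60) and -0.02 (-0.72 to 0.68). These intervals do not exclude a fall or a rise of *Actb* by up to 0.72 or 0.68 on the log2 scale in axons.

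For *Actg1* the intervals were narrower, with log2 fold changes of -0.11 (-0.49 to 0.26) on the somatodendritic side and 0.11 (-0.27 to 0.48) in axons. For *Acta2* they were -0.21 (-2.25 to 1.82) and -0.12 (-2.15 to 1.91), so that a difference of severalfold in either direction would have gone undetected. *Actg2* had 210 ± 169 CPM in +/+ and 115 ± 63.1 CPM in -/- axons, a log2 fold change of -0.87 (-2.66 to 0.92), which was -0.18 without +/+ axonal replicate 4. *Acta1* and *Actc1* had positive values of 0.89 and 3.51 on the somatodendritic side and 1.00 and 2.53 in axons, with intervals that all included 0. These positive values rested on the -/- libraries with the number 4. Without these libraries they were -0.05 and -0.16 on the somatodendritic side and -0.97 and -0.78 in axons. The test of whether the genotype effect differed between compartments called 0 of 6 actins and 0% of all genes, and 0 of 6 had an unadjusted p under 0.05, against 1.33% of all genes. The log2 difference of the effects was 0.08 (-0.90 to 1.07) for *Actb* and 0.22 (-0.31 to 0.75) for *Actg1*.

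Transcripts of other smooth muscle proteins were higher in axons along with *Acta2* and *Actg2*. Of 13 markers of smooth muscle cells and pericytes, the contractile cells of vessel walls, 9 were higher and 1 lower in +/+ axons, against 30.1% and 27.4% of all tested genes, and the list had a median log2 fold change of 3.34 against 0.07 over all genes. *Cnn1*, *Tagln* and *Myl9*, which encode calponin, transgelin and a myosin light chain, differed by 5.48 (SE 1.05), 5.37 (0.95) and 5.09 (0.87) on the log2 scale, and *Lmod1*, an actin nucleator of smooth muscle, by 3.78 (0.92). *Notch3*, a receptor of vessel wall cells, was the 1 lower gene at -1.05 (0.31) and was named after its value was seen. So were 4 further members. *Pdgfrb* and *Cspg4* had higher means in +/+ axonal than somatodendritic libraries (194 against 17.6 and 87.3 against 30.3 CPM). *Kcnj8* and *Abcc9* had lower means there (0.625 against 1.19 and 0.337 against 1.94 CPM). The summed level of the list was 86.6 to 189 CPM in the somatodendritic and 639 to 2507 CPM in the axonal libraries, and none of its members was at 0 throughout a group. *Myh11*, the myosin heavy chain that defines differentiated smooth muscle and was named after its value was seen, had 1.86 ± 2.10 and 12.8 ± 11.8 CPM in +/+ somatodendritic and axonal libraries. Its +/+ axonal values ran from 0.108 to 28.2 CPM, and the -/- means were 1.82 ± 1.46 and 5.03 ± 3.57 CPM. The axonal libraries with the number 3, highest in *Acta2*, were also highest in this sum, at 2507 CPM in +/+ and 2350 CPM in -/- motoneurons. Whether such cells were present on the axonal side was not tested, and in these bulk libraries fewer cells of a type cannot be told apart from less RNA per cell. In -/- axons 8 members were higher and 1 lower, against 27.5% and 26.8% of all genes, with a median of 2.65 against 0.00.

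Skeletal muscle markers were examined beside *Acta1* and *Actc1*. Of 16 markers, 9 could be tested, and 3 of these, *Tnni1*, *Des* and *Mylpf*, which encode a troponin, desmin and a myosin light chain, were higher in +/+ axons. That share is close to the 30.1% of all genes, while the list median was 2.05 against 0.07. *Mylpf* had only 2 to 6 reads in +/+ somatodendritic and 14 to 26 in +/+ axonal libraries. In -/- axons 5 were higher, against 27.5% of all genes, with a median of 3.32 against 0.00. The summed level was 2.82 to 4.02 CPM in +/+ somatodendritic and 8.90 to 56.0 CPM in +/+ axonal libraries. Among -/- libraries it was 25.2 CPM in somatodendritic library 4 and 197 CPM in axonal library 4, against at most 4.11 and 31.7 CPM in the others. *Myog*, a transcription factor of differentiating muscle, had 63 and 561 reads in these 2 libraries, 1 read in -/- axonal library 1 and none in the other 13. *Myh3*, the embryonic myosin heavy chain, had 7.16 and 23.1 CPM in them and at most 0.302 CPM elsewhere, and both genes were named after their values were seen. *Myf5* and *Myf6* had no read in either +/+ group. Of 5 cardiac markers tested, *Tnnt2*, a cardiac troponin also made in embryonic skeletal muscle, was higher (5.24) and *Myh7* lower (-2.25) in +/+ axons, 1 gene in each direction where 30.1% and 27.4% of all genes were called. Whether skeletal or cardiac muscle cells were present, and what part they had in the values of *Acta1* and *Actc1*, was not tested.

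**Figure D5:**
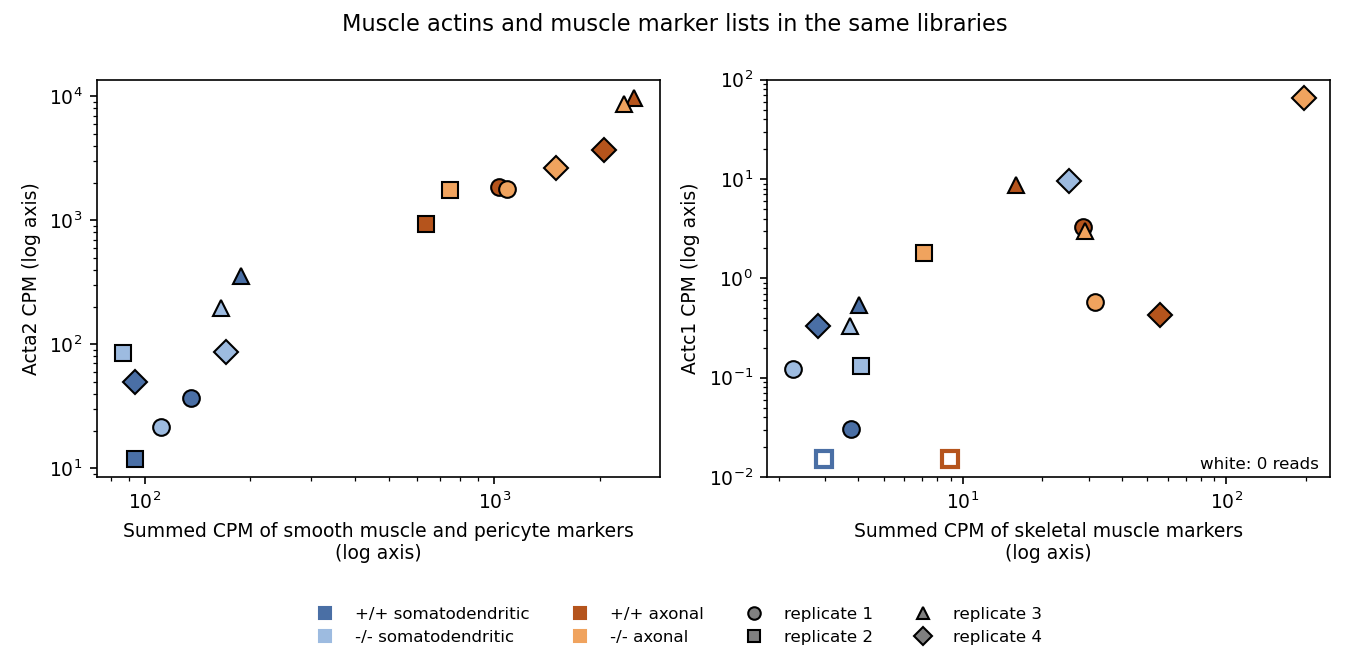
*Acta2* against the summed smooth muscle and pericyte markers (left) and *Actc1* against the summed skeletal muscle markers (right), in CPM on log axes, 1 point for each of the 16 libraries. Colours give the group, shapes the replicate number, and white symbols libraries with 0 reads of *Actc1*. Axonal libraries lie at 639 CPM or more of the left list and somatodendritic ones at 189 CPM or less, and -/- axonal replicate 4 is the highest point on the right.

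Other marker lists were read against the 30.1% of all genes that were higher and the 27.4% that were lower in +/+ axons. There, 3 of 10 fibroblast and meningeal markers were higher, a share close to that of all genes, and none lower, with a median of 1.77, 4 of 7 astrocyte and radial glia markers were higher, with a median of 0.88, and 1 of 7 oligodendroglia and Schwann cell markers tested was higher, with a median of 0.26. In the -/- comparison 1 of 10 fibroblast and 2 of 7 astrocyte markers were higher, with medians of 0.63 and 0.38, where 27.5% of all genes were higher. Of 7 microglia markers 1 was higher in +/+ axons, and of 4 endothelial markers tested 1 was higher and 2 were lower, with a median of -3.15. Of 8 motoneuron markers tested, 5 were lower and none higher in +/+ axons, with a median of -2.80, where 27.4% of all tested genes were lower. Among -/- libraries it was also 5 of 8, with a median of -1.78, where 26.8% of all genes were lower.

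Among the partners of actin, the transcripts of proteins that bind *Actb* mRNA were described next. Of 7, 4 were higher and 1 lower in +/+ axons, where 30.1% of all genes were higher, and 4 and 1 in -/- axons, where 27.5% were, with median log2 fold changes of 0.68 and 0.95. *Igf2bp1*, the zipcode-binding protein, rose from 1.38 ± 0.654 to 14.2 ± 11.1 CPM (3.36, SE 0.53), and its relatives *Igf2bp3* and *Igf2bp2* had 1.43 (0.26) and 1.11 (0.33). *Khsrp*, the counterpart of the zipcode-binding protein ZBP2, was lower at -0.76 (0.16). Between genotypes, the only member past the threshold was *Hnrnpr* itself, with log2 fold changes of -7.88 and -7.91 in the 2 compartments.

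Proteins that bind actin monomers or sever and cap filaments were higher as transcripts in 8 of 12 cases in axons of either genotype, and lower in none, against 30.1% of all genes higher in +/+ and 27.5% in -/- axons, with medians of 0.91 in +/+ and 0.83 in -/- motoneurons. *Gsn*, which encodes the severing protein gelsolin, had 2.98 (SE 0.62) in +/+ motoneurons. *Pfn1*, the profilin that feeds monomers to growing filaments, rose from 76.3 ± 8.94 to 482 ± 244 CPM (2.66, SE 0.34), and *Tmsb4x*, the monomer-sequestering thymosin β, from 354 ± 71.1 to 1190 ± 336 CPM (1.75, SE 0.25). *Cap2*, a cyclase-associated protein that recycles monomers, had 1.40 (0.29).

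Of 16 genes for the folding and N-terminal processing of actin, 5 were higher and 1 lower in +/+ axons and 9 higher and 1 lower in -/- axons, with medians of 0.32 and 0.44. The +/+ count is close to the 30.1% of all genes that were higher there, and 27.5% were higher in -/- axons. The prefoldin subunits *Pfdn1*, *Pfdn6* and *Pfdn5*, which hand unfolded actin to the chaperonin, had 1.36 (SE 0.19), 1.14 (0.19) and 0.88 (0.14) in +/+ motoneurons. *Naa80*, the acetyltransferase of actin, had 0.71 (0.19), whereas *Setd3*, the methyltransferase that modifies a histidine of actin, was lower at -0.38 (0.15) and was named after its value was seen.

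Of 11 actin-like and actin-related genes tested, 2 were higher and 4 lower in axons of each genotype, with a median of -0.26 in both. Of all genes, 30.1% were higher and 27.4% lower in +/+ axons, and 27.5% higher and 26.8% lower in -/- axons. *Actl6a*, the form of a chromatin remodelling subunit found in dividing precursors, was higher in +/+ axons (2.15, SE 0.34) and *Actl6b*, its form in mature neurons, lower (-1.70, SE 0.58). *Actr2*, a core subunit of the Arp2/3 complex that branches filaments, fell from 177 ± 16.7 to 48.6 ± 14.8 CPM (-1.86, SE 0.23), and *Actr3b*, a variant of its partner, had -1.34 (0.47). *Actr3*, that partner itself, was higher at 0.60 (0.21) and was named after its value was seen. *Actbl2* had no read in any library.

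SRF drives several actin genes together with the myocardin family. Of 11 genes comprising *Srf*, its cofactors and classical targets, 7 were higher and 1 lower in +/+ axons and 7 higher in -/- axons, against 30.1% and 27.5% of all genes higher, with medians of 2.12 and 1.70. *Srf* rose from 13.7 ± 1.68 to 37.3 ± 13.3 CPM (1.45, SE 0.27), as named after its value was seen. *Myocd*, the cofactor of smooth and cardiac muscle, had 3.64 (0.85), and the 3 largest changes were those of *Cnn1*, *Tagln* and *Myl9*, which are also on the smooth muscle list. *Mrtfb*, the 1 lower gene, had -0.66 (0.24) and was likewise named after its value was seen.

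The genes most like 3 of the actins across the 8 axonal libraries were ranked among 11017 genes by the Pearson correlation of log2(CPM + 1), as a description. The libraries share genotypes, depth and the high values of number 3. For *Actb* they were *Mettl2* (0.986), *Alkbh5* (0.982), *Sec22b* (0.982), *Rbm42* (0.982) and *Psmd7* (0.979), which varied far less than *Actb* itself, *Mettl2* for instance from 18.98 to 31.5 CPM. For *Actg1* they included *Aen* (0.991), *Hspb1* (0.989), *Trim16* (0.985) and *Kctd10* (0.983). Of these, *Hspb1*, which encodes a small heat shock protein that binds actin filaments, ranged from 21.6 to 177 CPM. For *Acta2* they were *Speg* (0.984), *Yif1b* (0.983), *Slc39a7* (0.982), *Rest* (0.981) and *Pcsk7* (0.978). *Speg* encodes a kinase of striated and smooth muscle, and *Rest* a repressor of neuronal genes outside neurons.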

How the data were processed

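Polyadenylated RNA of each compartment was made into cDNA with the SMART-Seq v4 kit and sequenced by the authors as single reads of 100 bases. The values are fractional, that is expected counts per gene as deposited: the authors trimmed reads, aligned them to GRCm39 with STAR 2.7.2b and counted them over exons on the reverse strand with featureCounts 1.6.4, dividing reads with several alignments or genes into fractions, with no pooling of libraries. Near-identical copies of a gene therefore share its reads. The kit does not mark strand, so only reads of one orientation were counted and a gene cannot be told apart from an antisense partner. Lengths are the combined exon lengths of the deposited table.

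Counts were rounded and fitted with edgeR 4.0.16 in R 4.3.3 (TMM factors, filterByExpr, 4 group means over 16 libraries, quasi-likelihood F-tests), with Benjamini-Hochberg adjustment over 19964 genes and a threshold of 0.05. Fold changes are on the log2 scale, with the SE computed from the F statistic. The code was tested on simulated counts. Ratios within a library were compared by exact permutation with scipy 1.17.1. DESeq2 1.42.0, other scalings, filters, blocks and left-out libraries were alternatives. Copies of the actins were sought in GRCm39 with BLAST+ 2.17.0 and coding sequences aligned with Biopython 1.88.

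Library totals were 22024923 to 34864151 counts. The actin genes and lists were chosen with earlier results of these data known. All 6 actins are named. Of each list, up to 4 genes past the threshold with the largest log2 change are named, besides markers at 0 and genes said to be chosen after their values were seen. Pseudogenes of at least 1 CPM are named where their description names an actin or actin-related gene. Of the copies found by alignment alone, only the largest is named. For 3 actins the 5 most correlated genes are named among those with a mean of at least 10 CPM in axons. One of these correlated genes is not reported here. Same-numbered somatodendritic and axonal libraries deviated together in -/- cultures (r = 0.444, 0.169, 0.246 and 0.577 over genes), which met the rule for pairs, every r over 0.1. In +/+ cultures one r was 0.0833, so the rule was not met. The reported values come from the fit without a block, and the fit with the culture as a block is given where it changes a call.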

Additional observations from a re-analysis of the deposited data

Results flagged for a closer look

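Within groups of 4 libraries, 28 sets of values (the CPM of 6 actins and the *Actg1* to *Actb* ratio in 4 groups) were examined with Dixon's test for a single value apart from the rest. Of these, 9 passed the critical ratio of 0.829, which normally distributed values would pass in about 1 set in 20. CPM was taken here without logarithms, and its SD exceeded its mean in several groups. That rate therefore does not apply, and the number of sets is no measure of an excess over chance. The lowest value was the one apart for *Actb* in +/+ somatodendritic replicate 2, with 3490 CPM against 3965 to 4044 CPM in the other libraries. Replicate 3 was apart for *Acta2* and *Actg2*. *Acta2* had 353 CPM in +/+ somatodendritic and 8734 CPM in -/- axonal replicate 3, and *Actg2* had 14.2 CPM in +/+ and 12.02 CPM in -/- somatodendritic replicate 3. The -/- replicate 4 was apart in both compartments for the sarcomeric actins, with 6.78 CPM of *Acta1* and 9.57 CPM of *Actc1* on the somatodendritic side and 55.1 and 66.1 CPM in axons. The same libraries held nearly all reads of *Myog* and of *Myh3*. The sets are not independent, since libraries and replicate numbers recur among them, and what sets these libraries apart was not tested.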

How the results depend on the processing

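The number of actins past the threshold between compartments was 3 in each genotype and stayed at 3 or 4 under the other scalings, filters, tests and blocks, except that library totals without TMM factors gave 5 in -/- motoneurons. Leaving out -/- replicate number 4 in both compartments, chosen after seeing the data, gave 5 in +/+ motoneurons. Leaving out 1 library gave 3 to 4 in +/+ and 3 to 5 in -/- motoneurons, 5 without -/- somatodendritic replicate 4 or +/+ axonal replicate 2 or 3. No alternative called an actin between genotypes or for the difference between compartments. The *Actg1* to *Actb* ratio stayed lower in axons throughout. With the replicate block its log2 difference was -1.01 in +/+ and -0.94 in -/- motoneurons (exact permutation p = 0.125, the smallest possible). Without number 3 it was -0.80 and -0.84, and without -/- number 4 it was -0.94 in -/- motoneurons (exact permutation p = 0.1, again the smallest possible). Leaving out 1 library gave -1.12 to -0.77 and -1.11 to -0.80 (exact permutation p = 0.0571, the smallest possible). The genotype difference in the ratio changed sign on the somatodendritic side without number 3 (0.00731) or -/- number 4 (0.00597), with a range of -0.10 to 0.0407 without 1 library, and in axons without number 3 (-0.0350), with a range of -0.17 to 0.21. The share of *Actb* in -/- axons was 59.5% without division by length, and 55.7% with near-identical pseudogene counts added to *Actg1*, whose share there was then 29.7%. Genotype effects that changed sign did so without passing the threshold. On the somatodendritic side, these were *Acta2* with the replicate block (0.51) or without number 3 (0.93), *Actg2* with the replicate block (0.0166) or without -/- number 4 (0.0306), and *Acta1* (-0.0543) and *Actc1* (-0.16) without -/- number 4. In axons they were *Actb* with no filter (0.00102), the replicate block (0.0196) or without number 3 (0.15), *Acta2* with the replicate block (0.0211) or without -/- number 4 (0.0147), and *Acta1* (-0.97) and *Actc1* (-0.78) without -/- number 4. For the difference between compartments they were *Acta2* with the replicate block (-0.49), the culture block (-0.45) or without number 3 (-0.97), *Acta1* without -/- number 4 (-0.91), and *Actc1* in DESeq2 with a prior on fold changes (0.51). Leaving out 1 library moved the somatodendritic genotype effect from -0.82 to 1.57 for *Acta2*, -1.34 to 1.12 for *Actg2*, -0.0539 to 1.14 for *Acta1* and -0.15 to 4.48 for *Actc1*. In axons it moved from -0.33 to 0.48 for *Actb*, -0.0278 to 0.23 for *Actg1*, -0.96 to 0.81 for *Acta2*, -1.20 to -0.18 for *Actg2*, -0.97 to 1.85 for *Acta1* and -0.78 to 3.86 for *Actc1*. The difference between compartments moved from -0.24 to 0.56 for *Actb*, -1.68 to 1.01 for *Acta2*, -1.98 to 0.47 for *Actg2*, -1.86 to 1.05 for *Acta1* and -4.29 to 2.68 for *Actc1*, and the compartment effect of *Actc1* in -/- motoneurons from -0.50 to 6.46. The cause of these shifts was not tested. Within each genotype, the axonal library that best matched a somatodendritic one was that of its own number. Across genotypes, libraries of number 3 also deviated together (r = 0.470 on the somatodendritic side and 0.786 in axons), as did axonal libraries of number 2 (r = 0.410). The other values of r across genotypes were at most 0.160. In +/+ motoneurons the rule for pairs was met at only 3 of 4 numbers. There, the replicate block called 4 actins, adding *Actc1* (4.58, edgeR adjusted p = 0.0308), as did the culture block (3.49, edgeR adjusted p = 0.00994). Few reads also limit *Actc1*, with 0 to 13 in each +/+ somatodendritic library.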
